A study of Mus musculus with 16 samples.

Results

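The genes described here are the proteasome subunits and their helpers, taken as every gene on the array whose name is Psma, Psmb, Psmc, Psmd, Psme, Psmf or Psmg followed by a number. This gave 48 genes with 73 probes, out of 30027 named genes on the array. The contrast of interest is between the 5 immune subunits (Psmb8, Psmb9, Psmb10, Psme1 and Psme2) and the 31 constitutive subunits of the 20S core and the 19S regulator, over the 4 treatment groups. The tumours were B16-BL6 melanomas, a transplantable mouse melanoma line, grown in male C57BL/6J mice 8 weeks old, and the study asked how 5-aminolevulinic acid (ALA, a precursor of the photosensitizer protoporphyrin IX) affects radiotherapy. The 4 groups of 4 tumours were untreated controls, ALA alone (50 mg/kg given locally), X-ray alone (fractionated irradiation) and ALA plus X-ray (the same local ALA before fractionated irradiation). All 4 groups share the tumour line, the strain, the sex and the age, and the X-ray dose and the time of harvest are not given in the sources used here. Tumours of one line are a model of one melanoma, and whole tumours were profiled, so host cells contributed RNA to every sample. In such bulk samples fewer cells of a type and less RNA per cell cannot be told apart.

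The proteasome degrades ubiquitin-tagged proteins in a barrel-shaped core, the 20S particle, made of outer alpha rings and inner beta rings. In the constitutive core the peptide bonds are cut by Psmb5, Psmb6 and Psmb7. Interferon-gamma induces the replacement subunits Psmb8, Psmb9 and Psmb10, which take the places of Psmb5, Psmb6 and Psmb7 in newly assembled cores and give the immunoproteasome, whose products fit MHC class I molecules better. Psme1 and Psme2 form the PA28 alpha-beta cap, which is also induced by interferon-gamma, whereas Psme3 forms the nuclear PA28 gamma cap. The 19S regulator recognises ubiquitin, unfolds the substrate with its Psmc ATPases and feeds it into the core, and the Psmg proteins with Psmd5, Psmd9 and Psmd10 act as assembly chaperones.

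The sequence upstream of each gene is shown for a pair of catalytic switches, since these are the genes whose levels parted most between the groups. RefSeq (GRCm38.p6) windows of 250 bases upstream of the annotated start were found for 40 of the 48 genes. Capitals mark matches, on either strand, to one of 5 motifs: a gamma-activated site (TTCNNNGAA, an interferon-gamma response motif), an interferon-stimulated response element core (GAAANNGAA), an antioxidant response element core (TGACNNNGC, the type of site bound by Nfe2l1 and Nfe2l2), an NF-kB core (GGGNNTTCC) and an NF-Y box (CCAAT). The windows lie at chr17:34197945-34198194 (plus strand) for Psmb8, chr14:54617996-54618245 (minus strand) for its counterpart Psmb5, chr17:34187331-34187580 (minus strand) for Psmb9 and chr11:70525107-70525356 (plus strand) for its counterpart Psmb6.
Psmb8: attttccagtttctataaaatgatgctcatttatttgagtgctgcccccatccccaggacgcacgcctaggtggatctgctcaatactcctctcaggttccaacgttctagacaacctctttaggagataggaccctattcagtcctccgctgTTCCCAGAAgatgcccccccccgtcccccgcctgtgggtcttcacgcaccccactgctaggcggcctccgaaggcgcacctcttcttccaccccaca
Psmb5: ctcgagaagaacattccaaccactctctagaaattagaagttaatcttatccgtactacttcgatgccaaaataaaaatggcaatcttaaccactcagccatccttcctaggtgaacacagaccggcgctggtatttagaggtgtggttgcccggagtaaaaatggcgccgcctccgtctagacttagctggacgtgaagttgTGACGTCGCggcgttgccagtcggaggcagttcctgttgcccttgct
Psmb9: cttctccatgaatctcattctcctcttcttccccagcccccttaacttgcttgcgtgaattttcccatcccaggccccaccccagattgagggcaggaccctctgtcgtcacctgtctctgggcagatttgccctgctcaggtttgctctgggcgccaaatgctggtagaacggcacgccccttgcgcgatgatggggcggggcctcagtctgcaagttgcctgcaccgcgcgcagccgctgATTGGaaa
Psmb6: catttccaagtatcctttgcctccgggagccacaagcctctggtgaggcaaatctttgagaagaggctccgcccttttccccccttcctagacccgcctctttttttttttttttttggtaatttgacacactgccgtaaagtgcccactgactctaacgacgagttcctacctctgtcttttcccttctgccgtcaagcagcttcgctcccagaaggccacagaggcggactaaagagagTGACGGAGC
The Psmb8 window holds a gamma-activated site from base -97 to -89, counted back from the start. The same motif was found upstream of 1 of the 5 immune genes and of 0 of the 25 constitutive genes with a window, and in 7.02% of all 32851 RefSeq windows of this length. Outside these classes it was also found upstream of the chaperone gene Psmg1, at -243 to -235. The antioxidant core lies at -47 to -39 in Psmb5 and at -9 to -1 in Psmb6. It was found upstream of 4 of the 25 constitutive genes (Psmb5, Psmb6, Psmc6 and Psmd12) and 0 of the 5 immune genes, against 10.2% of all windows. The window of the chaperone gene Psmd9 holds this core at -31 to -23 and an interferon-stimulated core at -159 to -151. The Psmb9 window holds only the NF-Y box, read here on the other strand as ATTGG at -8 to -4, a motif present in 33.8% of all windows and upstream of 10 of the 25 constitutive genes. The interferon-stimulated core, with a share of 7.13% of all windows, was found upstream of 0 of the 5 immune genes and of Psmb3 and Psmd4 among the constitutive ones, and the NF-kB core, with 4.98%, upstream of Psmd11 alone. A match is a run of letters and not a measured binding site, and its absence says only that these letters are not in the window. The Psmb9 window shares 225 bases with the window of Tap1, the peptide transporter gene that is transcribed in the opposite direction next to it.

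Expression was measured on 16 one-colour whole-genome arrays, one for each tumour, and levels are given as log2 of the deposited processed signal minus that array's 75th percentile, so that 0 is the 75th percentile of the array. That percentile ranged from 213 to 521 between arrays, the share of spots above background from 44.3% to 53.6%, and 46 of the 48 proteasome genes were above background by the scanner's test on all 16 arrays. Each slide carried 1 array of each group and shared its number with the replicate, and each group kept its own slide position, so position and group cannot be told apart. Differences were tested for the 15409 genes above background on at least 4 arrays with limma and Benjamini-Hochberg adjustment over all of them, and a gene is called here at an adjusted p under 0.05. Of the genes called, the share called higher moved with the scaling. For ALA plus X-ray against control it was 39.3% of 3829 genes and, with each array scaled to its median, 45.5% of 2134. The same shares were 59.2% of 519 and 96.4% of 28 for X-ray against control, 44.4% of 3715 and 71.8% of 1898 for ALA plus X-ray against ALA, and 63% of 319 and 84.8% of 244 between the irradiated groups. The labels speak of tumour preparations and do not say that each came from a separate animal, so the p-values measure the spread between these preparations. X-ray replicate 1 stood apart from the other 3 X-ray arrays in interferon, MHC class I and immune subunit genes, and ALA plus X-ray replicate 1 stood apart from its group in leukocyte and constitutive subunit genes. Results that rest on either array are therefore given with and without it. Both arrays were singled out by their values in genes tested here, so p-values of fits without them do not stand as independent tests.

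Psmb8, the immune counterpart of Psmb5, was at 0.50, 1.25, 1.47 and 1.51 (log2 level, replicates 1 to 4) in controls, at 1.09, 1.11, 0.95 and 0.85 with ALA, at 5.37, 1.23, 1.29 and 1.00 with X-ray, and at 3.49, 3.91, 3.65 and 4.23 with ALA plus X-ray. All 4 ALA plus X-ray tumours lay above every control and every ALA tumour, and X-ray replicate 1 lay above all of them while the other 3 X-ray tumours lay among the controls. Psmb9, the counterpart of Psmb6, was at -0.70, 0.05, 0.18 and 0.47 in controls, at -0.70, -0.17, -0.39 and -0.86 with ALA, at 4.47, -0.62, -0.28 and -0.73 with X-ray, and at 2.17, 2.50, 2.03 and 2.85 with ALA plus X-ray. The same arrays were high and low as for Psmb8. Psmb10, the counterpart of Psmb7, was at 4.15, 4.05, 4.09 and 4.24 in controls, at 3.82, 4.31, 3.93 and 3.95 with ALA, at 6.31, 4.41, 4.19 and 4.22 with X-ray, and at 5.39, 5.04, 5.34 and 5.26 with ALA plus X-ray. Its spread within the control group was narrow, and again the combined group and the first X-ray tumour stood above the rest. The probes lie, by the array's annotation of the mm9 build, at chr17:34337828-34338152 for Psmb8, chr17:34319174-34319233 for Psmb9 and chr8:108459677-108459736 for Psmb10.

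The PA28 cap genes differed from each other. Psme2, the beta subunit (chr14:56206335-56206394, mm9), was at 4.42, 4.22, 4.38 and 4.61 in controls, at 4.56, 4.43, 4.55 and 4.83 with ALA, at 6.22, 4.83, 4.68 and 4.88 with X-ray, and at 5.46, 5.16, 5.57 and 5.48 with ALA plus X-ray. Here all 4 X-ray tumours lay above all 4 controls, and the combined group lay above the controls and the ALA tumours. Psme1, the alpha subunit (chr14:56200194-56200253, mm9), was at 4.90, 4.70, 4.64 and 4.64 in controls, at 4.74, 4.74, 4.72 and 4.83 with ALA, at 6.18, 4.92, 4.69 and 4.92 with X-ray, and at 5.08, 4.91, 4.81 and 4.98 with ALA plus X-ray. Psme1 in the combined group overlapped the controls, and only X-ray replicate 1 stood far above them. Psme3, which forms the PA28 gamma cap, ran from 2.62 to 3.40 in controls, from 3.05 to 3.56 with ALA, from 3.09 to 3.68 with X-ray and from 2.46 to 3.23 with ALA plus X-ray, with all 4 groups overlapping.

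**Figure D1:**
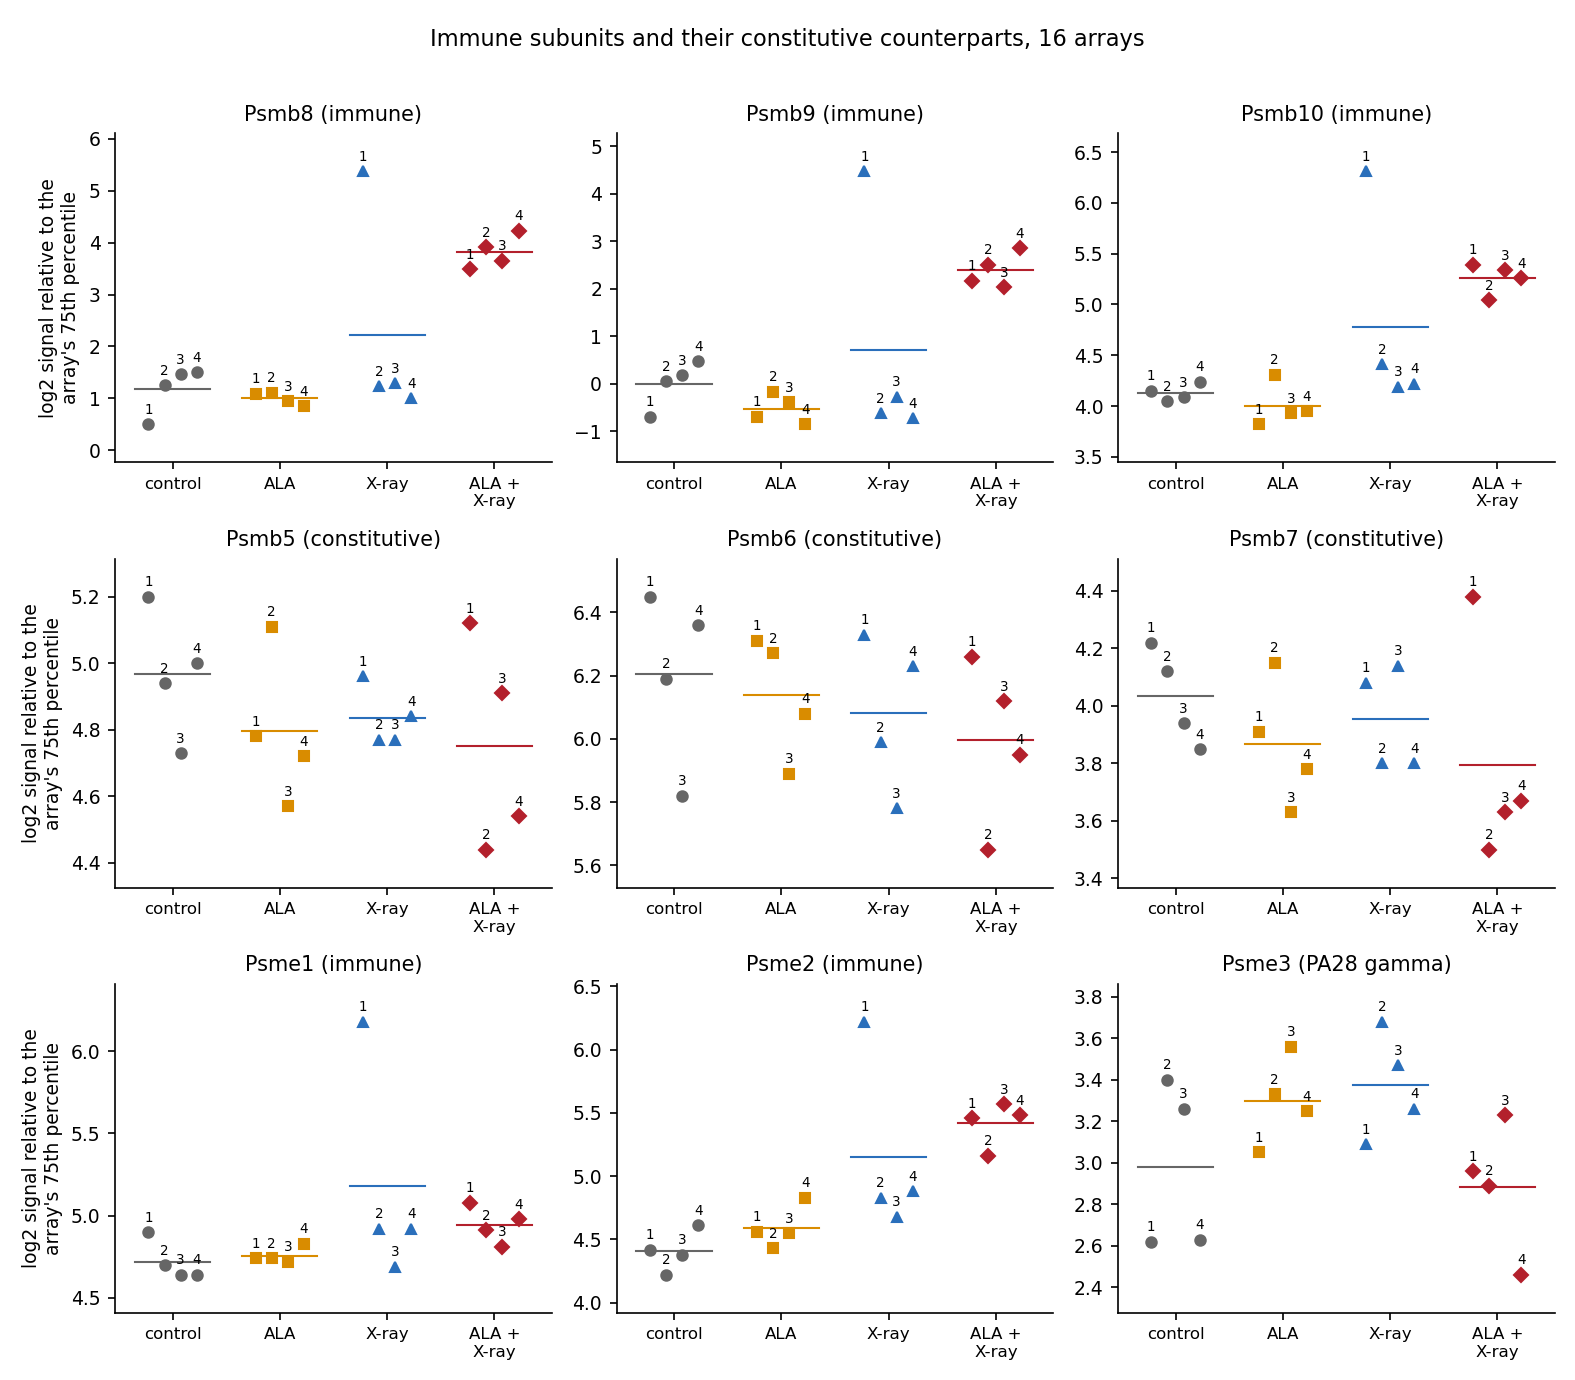
Log2 signal relative to the array's 75th percentile (vertical axes, scaled for each gene) in 4 groups of 4 arrays, for the immune subunits, the constitutive counterparts Psmb5, Psmb6 and Psmb7, and Psme3. Points carry the replicate number and lines are group means; for Psmb8, Psmb9, Psmb10 and Psme2 all 4 ALA plus X-ray arrays and X-ray replicate 1 lie above every control.

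Against controls, the combined treatment raised 3 of the 5 immune subunits. Psmb8 rose 6.21-fold (log2 2.64, SE 0.71, limma adjusted p = 0.0182), Psmb10 2.18-fold (log2 1.12, SE 0.35, adjusted p = 0.0326) and Psme2 2.02-fold (log2 1.01, SE 0.26, adjusted p = 0.0154). Psmb9 was 5.23-fold higher with a wider error and missed the threshold (log2 2.39, SE 0.85, limma adjusted p = 0.0524), and Psme1 was 1.17-fold higher (log2 0.22, SE 0.24, adjusted p = 0.517). These SE values pool the spread of all 4 groups, including X-ray alone. The SD of Psmb9 was 0.50 in controls and 0.37 in the combined group, but 2.51 with X-ray. In the same order it was 0.47, 0.32 and 2.10 for Psmb8, and 0.08, 0.16 and 1.02 for Psmb10. For comparison, 9.77% of all genes tested were called higher in this comparison. The groups did not overlap for 4 of the 5, against 20.6% of all genes. The Psmb8 call was lost without control replicate 1, the control with the lowest level (log2 2.41, limma adjusted p = 0.053). The Psmb10 call was lost, with log2 values between 1.10 and 1.20 and adjusted p between 0.0552 and 0.0758, when any control or ALA plus X-ray replicate 2, 3 or 4 was left out, and Psmb9 was called without X-ray replicate 1 (limma adjusted p = 0.000304) or 4 (adjusted p = 0.0481). Psmb9 was also called in 5 of 12 other settings: normexp (limma adjusted p = 0.0496), the percentile over probes above background (adjusted p = 0.0499), the filter on all 16 arrays (adjusted p = 0.0345), only the arrays compared (adjusted p = 0.00725) and array weights (adjusted p = 0.01). The Psmb10 call was also lost with median scaling (limma adjusted p = 0.0648) and without the filter on dim probes (adjusted p = 0.0601). The Psme2 value depends on the probe: the brighter of 2 probes gave log2 1.01 and the other 0.47, and with their mean the call was lost (log2 0.74, limma adjusted p = 0.0616). The 2 Psmb8 probes gave log2 2.64 and 2.62.

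Against ALA alone, 4 immune subunits were called higher, while 10.7% of all genes were. Psmb9 rose 7.54-fold (log2 2.91, SE 0.85, limma adjusted p = 0.025), Psmb8 7.06-fold (log2 2.82, SE 0.71, adjusted p = 0.0141), Psmb10 2.39-fold (log2 1.25, SE 0.35, adjusted p = 0.0214) and Psme2 1.77-fold (log2 0.82, SE 0.26, adjusted p = 0.0348). The groups did not overlap for these 4 genes, as for 20.7% of all genes. Leaving out single arrays ended 3 of these calls but not that of Psmb8. The Psmb9 call was lost without ALA replicate 1 or 4 or ALA plus X-ray replicate 2 or 4 (limma adjusted p 0.0548 to 0.0616), and that of Psmb10 without ALA replicate 1 or 4 or ALA plus X-ray replicate 3 (adjusted p 0.0511 to 0.0528). The Psme2 call was lost without any one ALA replicate or ALA plus X-ray replicate 3 or 4 (limma adjusted p 0.0513 to 0.085), and with median scaling (adjusted p = 0.054), no filter (adjusted p = 0.0682) or the mean of its probes (log2 0.61, adjusted p = 0.111).

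ALA without irradiation left the immune subunits near the controls. The log2 differences were -0.18 for Psmb8, -0.53 for Psmb9, -0.13 for Psmb10, 0.04 for Psme1 and 0.19 for Psme2, and limma called 0 of the 46 proteasome genes, with 0 at an unadjusted p under 0.05. Over all genes, 0% were called in this comparison and 963 had an unadjusted p under 0.05. The comparisons that share a control group are not independent of each other, and their values are given side by side for that reason.

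X-ray alone gave 0 calls among the 5 immune subunits, with 1 (Psme2) at an unadjusted p under 0.05, while 1.99% of all genes were called higher. The log2 differences were 1.04 for Psmb8 (SE 0.71, limma adjusted p = 0.42), 0.71 for Psmb9 (adjusted p = 0.665), 0.65 for Psmb10 (adjusted p = 0.301), 0.46 for Psme1 (adjusted p = 0.283) and 0.75 for Psme2 (adjusted p = 0.115). These means rest on replicate 1. Without it the differences were -0.01 for Psmb8, -0.54 for Psmb9, 0.14 for Psmb10, 0.12 for Psme1 and 0.39 for Psme2 (limma unadjusted p = 0.0137, adjusted p = 0.15). Without that array 0.00649% of all genes were called higher and 0% lower. Psme2 is the 1 immune subunit whose X-ray arrays did not overlap the controls, where 18.3% of all genes did not overlap.

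Between the irradiated groups with and without ALA, limma called 0 of the 46 proteasome genes with all arrays in the fit, with 4 at an unadjusted p under 0.05, while 2.07% of all genes were called. Psmb8 was 3.02-fold higher (log2 1.60, SE 0.71, limma unadjusted p = 0.0404, adjusted p = 0.196), Psmb9 3.19-fold (log2 1.68, SE 0.85, adjusted p = 0.248) and Psmb10 1.39-fold (log2 0.47, SE 0.35, adjusted p = 0.432). Psme2 differed by log2 0.27 (limma adjusted p = 0.561) and Psme1 by -0.23 (adjusted p = 0.58). The 2 groups overlapped for all 46 genes, against 6.4% of all genes that did not overlap. For the immune subunits X-ray replicate 1 lay above the combined group. Without X-ray replicate 1, Psmb8 was 6.25-fold higher in the combined group (log2 2.64, SE 0.23, limma adjusted p = 9.57e-05), Psmb9 7.62-fold (log2 2.93, SE 0.27, adjusted p = 0.000143), Psmb10 1.98-fold (log2 0.98, SE 0.13, adjusted p = 0.00188) and Psme2 1.54-fold (log2 0.62, SE 0.14, adjusted p = 0.0167). Psme1 was not called without it either (log2 0.10, limma adjusted p = 0.581). In that reduced fit 4.85% of all genes were called higher and 2.25% lower, and the 4 immune subunits were the only proteasome genes called. X-ray replicate 1 was left out for its high values in these same genes. Its removal by itself raised the differences and narrowed the SE, for Psmb8 from 0.71 to 0.23. These p-values therefore describe the reduced fit only.

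The interaction, which asks whether X-ray changed a gene by a different amount after ALA, was called for 0 of the 46 genes by limma, with 2 (Psme3 and Psmd10) at an unadjusted p under 0.05, and for 1.23% of all genes. Its log2 values were 1.78 for Psmb8 (SE 1.00, limma adjusted p = 0.344), 2.20 for Psmb9 (adjusted p = 0.329), 0.61 for Psmb10 (adjusted p = 0.521), 0.08 for Psme2, -0.27 for Psme1 and -0.81 for Psme3 (adjusted p = 0.176). Without X-ray replicate 1 it was called for Psmb9 (log2 3.46, limma adjusted p = 0.000963), Psmb8 (log2 2.83, adjusted p = 0.00117) and Psmb10 (log2 1.11, adjusted p = 0.00424), with 3.45% of all genes called higher. Psme2 was not called (log2 0.43, limma adjusted p = 0.193). The array left out was again chosen by its values in these genes, so the p-values without it describe the reduced fit only.

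The balance between the immune and the constitutive subunits can be read within each array, as the mean of the 5 immune genes minus the mean of the 31 constitutive ones, each gene first centred over the 16 arrays. The balance was -0.96, -0.76, -0.49 and -0.45 in controls, -0.79, -0.69, -0.61 and -0.69 with ALA, 2.25, -0.34, -0.49 and -0.36 with X-ray, and 0.67, 1.24, 1.11 and 1.38 with ALA plus X-ray. Every ALA plus X-ray tumour lay above every control and every ALA tumour, and the X-ray group was split between replicate 1 and the others. The 0 of this scale is the mean over the arrays and does not mark equal levels of the 2 classes. As group means it was -0.67 ± 0.24 (SD, n = 4) in controls, -0.70 ± 0.07 with ALA, 0.26 ± 1.33 with X-ray and 1.10 ± 0.31 with ALA plus X-ray. On the 4 slides, which carried 1 array of each group, ALA plus X-ray exceeded control by 1.64, 2.00, 1.60 and 1.84. Against X-ray alone it differed by -1.58 on slide 1 and by 1.58, 1.60 and 1.74 on slides 2 to 4. The balance is a description and carries no test, since the genes were chosen for the contrast.

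Each immune catalytic gene was also set against its own counterpart on the same scale, and Psme1 and Psme2 each against Psme3, which forms a separate cap. From control to ALA plus X-ray the difference Psmb8 minus Psmb5 moved by 2.85, Psmb9 minus Psmb6 by 2.60, Psmb10 minus Psmb7 by 1.36, Psme2 minus Psme3 by 1.10 and Psme1 minus Psme3 by 0.31. From control to X-ray alone the same differences moved by 1.17, 0.84, 0.73, 0.35 and 0.06, and without X-ray replicate 1 by 0.17, -0.33, 0.26, -0.10 and -0.37. The catalytic pairs thus had the larger moves in the combined group, and the moves seen with X-ray alone were mostly those of a single tumour.

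**Figure D2:**
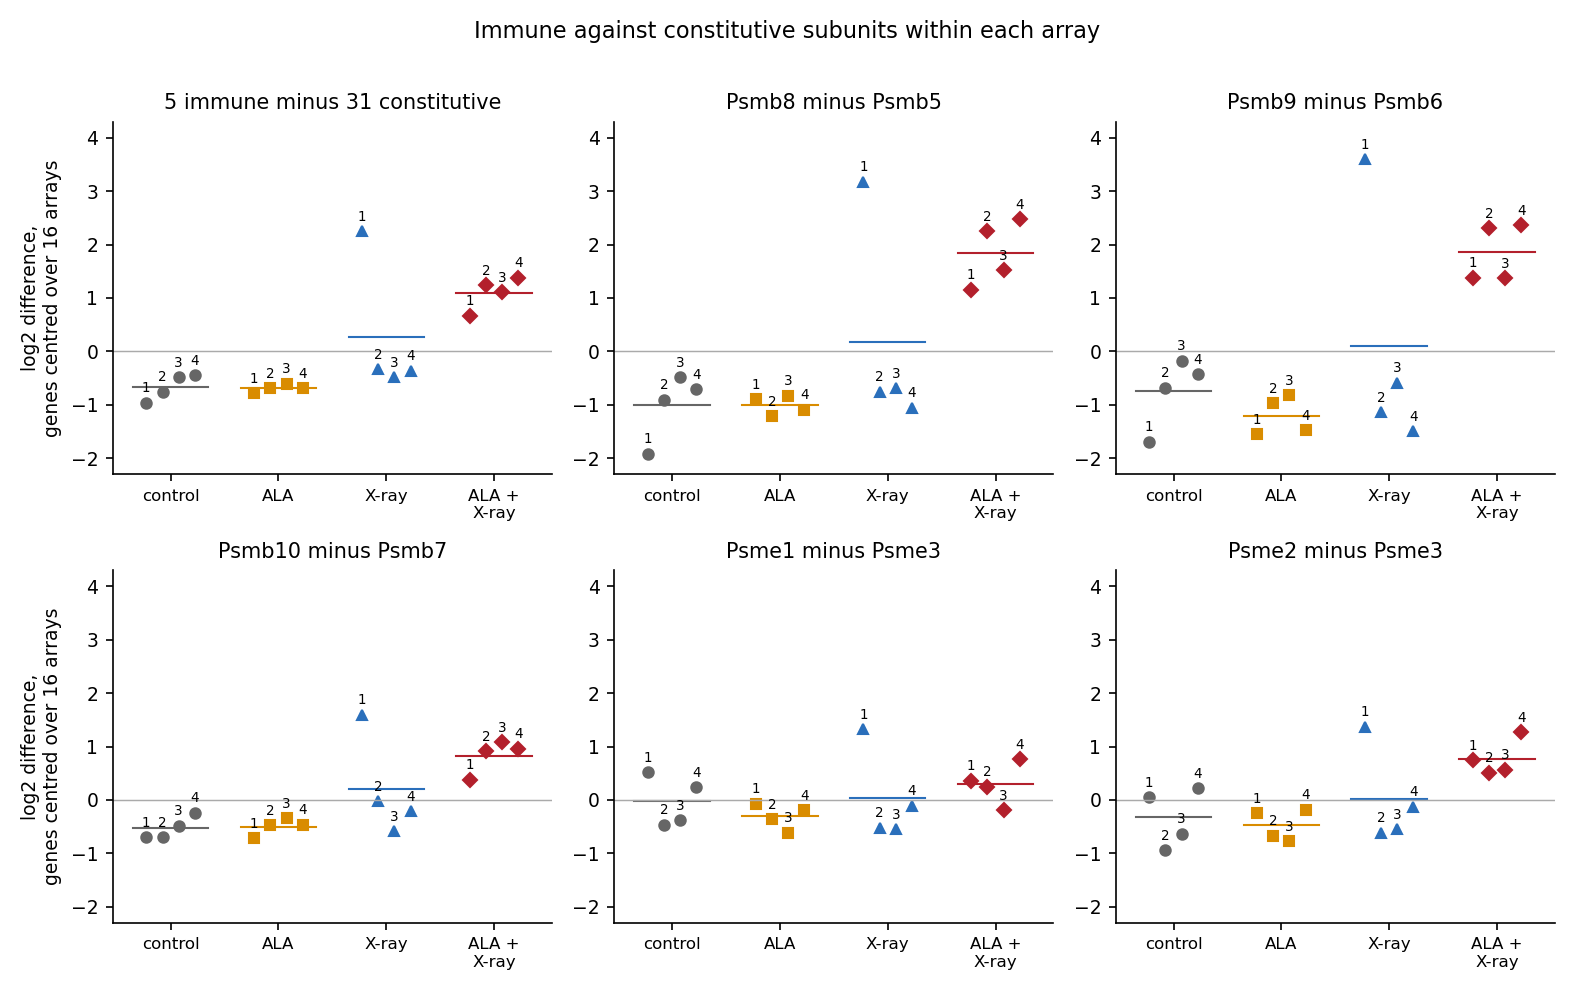
Difference between immune and constitutive subunits within each array (log2, genes centred over the 16 arrays; vertical axes), for the 5 immune against the 31 constitutive genes and for 5 gene pairs. Points are arrays with their replicate numbers and lines are group means; for the first panel the ALA plus X-ray arrays lie between 0.67 and 1.38 and the controls between -0.96 and -0.45.

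The constitutive counterparts that the immune subunits replace were not called in any comparison with all arrays weighted equally. Psmb5 was at 5.20, 4.94, 4.73 and 5.00 in controls and at 5.12, 4.44, 4.91 and 4.54 with ALA plus X-ray, a log2 difference of -0.22 (limma adjusted p = 0.343). Psmb6 was at 6.45, 6.19, 5.82 and 6.36 in controls and at 6.26, 5.65, 6.12 and 5.95 with ALA plus X-ray (log2 -0.21, limma adjusted p = 0.398). Psmb7 was at 4.22, 4.12, 3.94 and 3.85 in controls and at 4.38, 3.50, 3.63 and 3.67 with ALA plus X-ray (log2 -0.24, limma adjusted p = 0.348). In all 3 genes the groups overlapped, and replicate 1 was the highest array of the combined group. Without that replicate Psmb7 was called lower (log2 -0.44, limma adjusted p = 0.0288), and with array weights both Psmb5 (log2 -0.38, adjusted p = 0.0327) and Psmb7 (-0.40, adjusted p = 0.0374) were.

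The rings of the 20S core, 7 alpha genes and 7 constitutive beta genes, gave 0 calls in the combined group against controls, with 3 alpha genes and 0 beta genes at an unadjusted p under 0.05. Over all genes 15.1% were called lower and 9.77% higher in this comparison. The alpha ring had a median log2 difference of -0.15, from Psma4 at -0.47 (limma adjusted p = 0.0611) to Psma6 at -0.07. The beta ring had a median of -0.21, from Psmb1 at -0.25 to Psmb4 at -0.09. Psma4 was at 3.43, 3.49, 3.39 and 3.42 in controls, at 3.13, 2.95, 3.10 and 2.64 with X-ray, and at 3.58, 2.79, 2.70 and 2.79 with ALA plus X-ray. Its X-ray arrays all lay below the controls, and in the combined group 3 did while replicate 1 was the highest array of all. With X-ray alone the alpha ring had 0 calls, 3 genes at an unadjusted p under 0.05 and a median of -0.32, and the beta ring a median of -0.08. There 1.38% of all genes were called lower and 1.99% higher.

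Among the genes of the 19S regulator, 6 of 11 non-ATPase subunits were called lower in the combined group than in controls and 0 of 6 ATPases were, where 15.1% of all genes were called lower. The means of all 6 ATPases were also below the controls, and the difference between these classes was not tested. Psmd2, a scaffold subunit that binds ubiquitin-like domains, was at 5.48, 5.39, 4.94 and 5.34 in controls and at 5.05, 4.45, 4.19 and 4.57 with ALA plus X-ray. It fell by 0.72 on the log2 scale (1.65-fold lower, SE 0.17, limma adjusted p = 0.0118), and only replicate 1 of the combined group reached into the control range. A second Psmd2 probe, also above background on all 16 arrays, gave a smaller fall of 0.38 (log2 -0.38). Psmd1, the other large scaffold subunit, was at 3.11, 3.20, 2.99 and 3.05 in controls and at 3.08, 2.41, 2.17 and 2.25 with ALA plus X-ray. It fell by 0.61 (limma adjusted p = 0.0212), again with replicate 1 inside the control range. Psmd6, a lid subunit (chr14:14946703-14946762, mm9), was at 3.30, 3.41, 3.31 and 3.42 in controls, at 2.83, 3.05, 2.91 and 2.88 with X-ray and at 3.03, 2.75, 3.18 and 2.97 with ALA plus X-ray. Both irradiated groups lay wholly below the controls.

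Psmd6 fell by 0.38 in the combined group (limma adjusted p = 0.0188) and by 0.44 with X-ray alone (1.36-fold lower, SE 0.10, adjusted p = 0.0351), where it was the only proteasome gene called, while 1.38% of all genes were called lower. The lid subunit Psmd11 fell by 0.46 in the combined group (limma adjusted p = 0.0213), the ubiquitin receptor Psmd4 by 0.54 (adjusted p = 0.0433) and the lid subunit Psmd13 by 0.67 (adjusted p = 0.0458). Psmd8, another lid subunit, had the highest value of the class at log2 0.17 (limma adjusted p = 0.436). The ATPases had a median of -0.28, from Psmc3 at -0.56 (limma adjusted p = 0.051) to Psmc1 at -0.13, with 3 of 6 at an unadjusted p under 0.05. With X-ray alone the non-ATPase subunits had a median of -0.28 with 4 of 11 at an unadjusted p under 0.05, and the ATPases a median of -0.19.

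Single arrays and settings moved several of these calls. The Psmd2 call was kept without any one of the 16 arrays and lost when only the arrays compared were fitted (limma adjusted p = 0.0595). The Psmd6 call in the combined group was lost without control replicate 2 or 4 or ALA plus X-ray replicate 2 (limma adjusted p 0.0504 to 0.0575), and those of Psmd1 and Psmd11 were lost without control replicate 1 or 2 or ALA plus X-ray replicate 2, 3 or 4 (adjusted p 0.0505 to 0.0644). The Psmd4 call was kept only without control replicate 3, ALA replicate 3, X-ray replicate 1 or ALA plus X-ray replicate 1, and that of Psmd13 only without X-ray replicate 1, 3 or 4 or ALA plus X-ray replicate 1 (limma adjusted p 0.0503 to 0.13 without any other array). The Psmd6 call with X-ray alone was lost without any control, ALA replicate 1 or 4, or X-ray replicate 1, 2 or 4 (limma adjusted p 0.0506 to 0.109). In the combined group the calls of Psmd1, Psmd4, Psmd6, Psmd11 and Psmd13 were each lost with normexp background correction, with median scaling, without the filter on dim probes and with only the arrays compared in the fit (limma adjusted p 0.0514 to 0.244). The first 3 of these settings also ended the Psmd6 call with X-ray alone (limma adjusted p 0.0761 to 0.254).

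**Figure D3:**
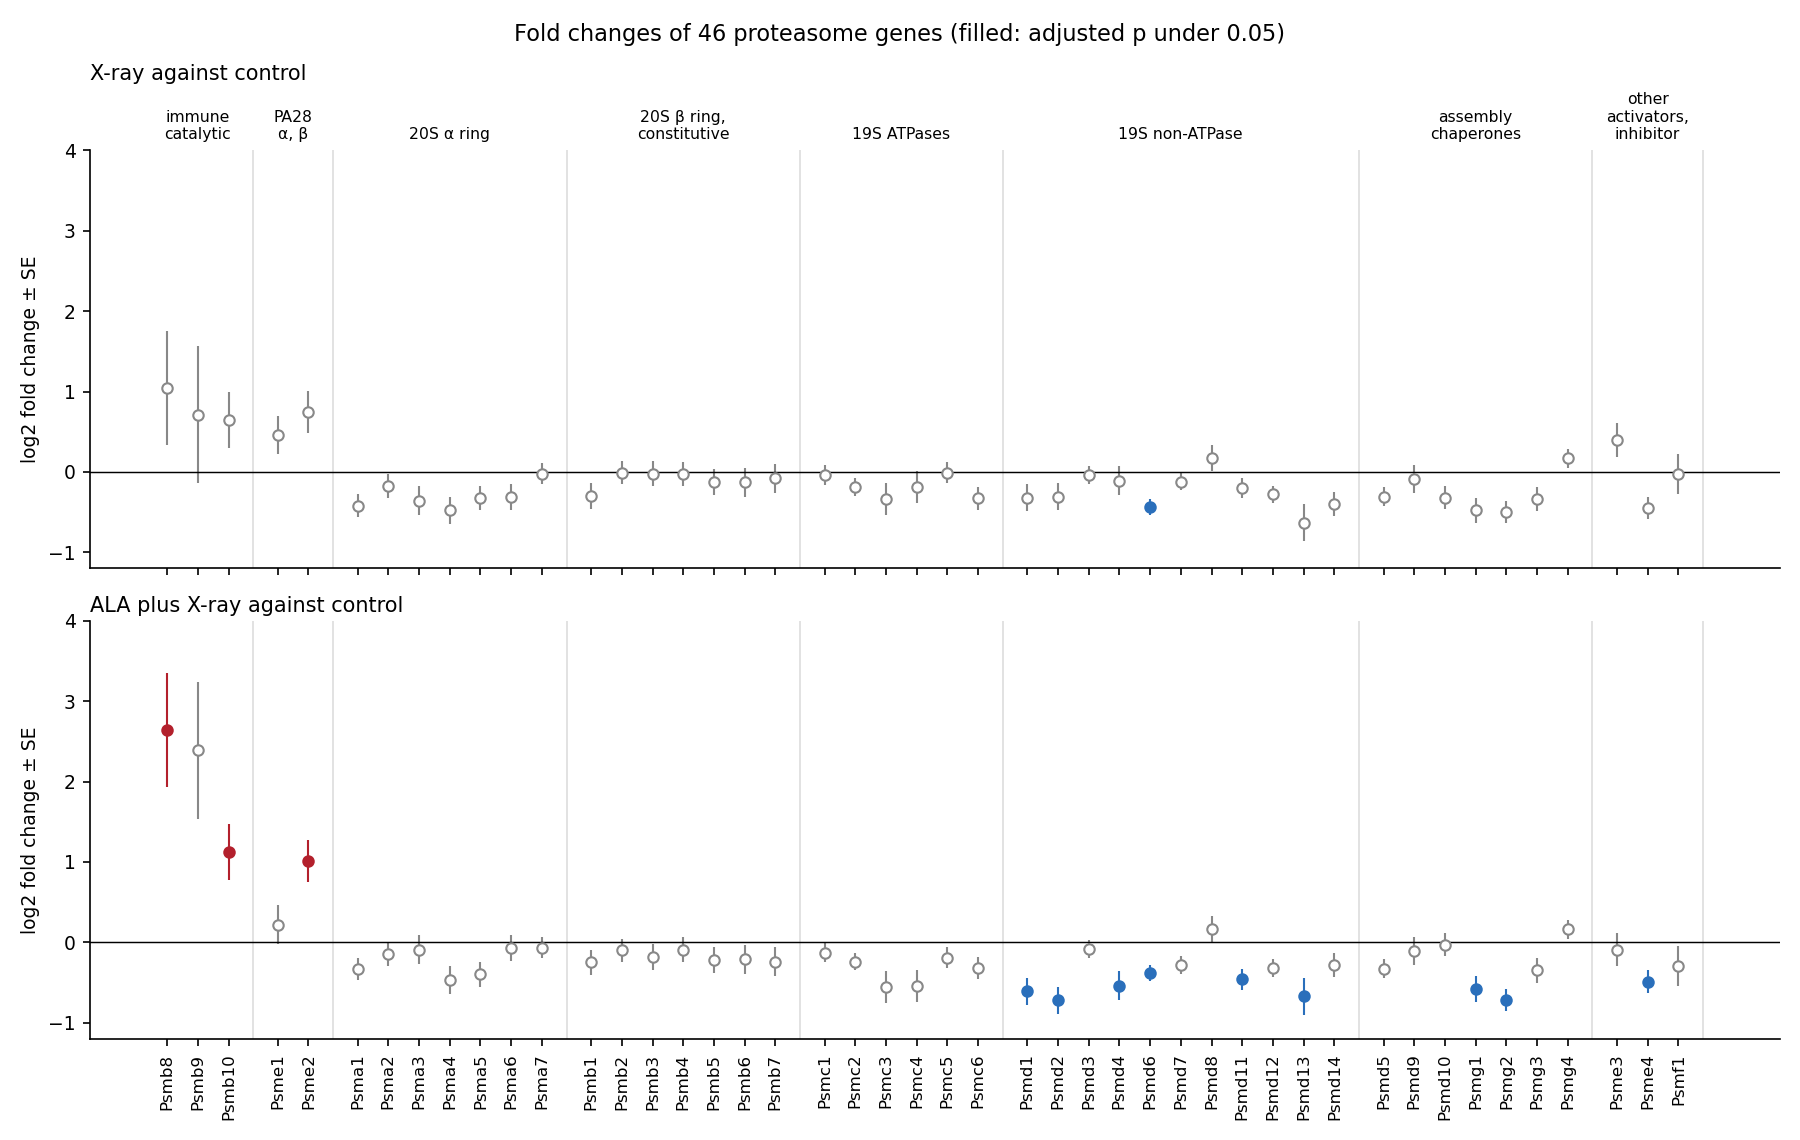
Log2 fold change with its standard error (vertical axes) of the 46 tested proteasome genes by class, for X-ray against control (top) and ALA plus X-ray against control (bottom). Filled points have an adjusted p under 0.05, red for higher and blue for lower; the bottom panel holds 3 higher and 9 lower, the top panel 1 lower.

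Of 7 assembly chaperones, 2 were called lower in the combined group than in controls, beside the 15.1% of all genes. Psmg2, which with Psmg1 starts the assembly of the alpha ring, was at 2.71, 2.64, 2.49 and 2.61 in controls, at 2.07, 2.08, 2.32 and 1.96 with X-ray, and at 2.31, 1.74, 1.77 and 1.76 with ALA plus X-ray. Both irradiated groups lay wholly below the controls. It fell by 0.72 in the combined group (1.65-fold lower, SE 0.14, limma adjusted p = 0.00513), a call kept without any one array, and was at -0.50 with X-ray alone (adjusted p = 0.0591). Its partner Psmg1 was at 2.16, 2.23, 2.27 and 2.23 in controls, at 1.54, 1.83, 2.01 and 1.59 with X-ray, and at 2.10, 1.44, 1.34 and 1.68 with ALA plus X-ray. It also lay below the controls in both irradiated groups and fell by 0.58 in the combined group (limma adjusted p = 0.0179), a call lost without ALA plus X-ray replicate 2 (adjusted p = 0.055) or 3 (adjusted p = 0.0537), with median scaling (adjusted p = 0.0676) or with only the arrays compared (adjusted p = 0.0674). Psmg4 was the highest chaperone at log2 0.16 (limma adjusted p = 0.365).

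Among the remaining activators and the inhibitor, Psme4, which encodes the PA200 cap, was at 5.36, 5.44, 5.13 and 5.33 in controls, at 4.95, 4.83, 4.90 and 4.78 with X-ray and at 5.25, 4.57, 4.72 and 4.77 with ALA plus X-ray. It fell by 0.49 in the combined group (limma adjusted p = 0.022) and was at -0.45 with X-ray alone (adjusted p = 0.0798). All X-ray arrays lay below the controls, and in the combined group replicate 1 again reached into their range. The Psme4 call was lost without control replicate 1 or 2 or ALA plus X-ray replicate 2, 3 or 4 (limma adjusted p 0.0508 to 0.0676), and with normexp, median scaling, no filter or only the arrays compared (adjusted p 0.0601 to 0.186). Psme3 differed by -0.09 (limma adjusted p = 0.793). Psmf1, which encodes the PI31 protein, was at -0.29 by its brightest probe, and its 3 probes disagreed in sign, at -0.29, 1.14 and 0.26, where the probe at 1.14 was above background on 13 of the 16 arrays.

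Over all 46 genes the combined group held 3 genes called higher and 9 called lower against controls, with 23 at an unadjusted p under 0.05. Except for ALA alone, no share of all genes stands beside such unadjusted counts, so they are not read as particular to the proteasome genes. The median log2 difference was -0.28 over the 41 genes other than the 5 immune ones and -0.25 over the 31 constitutive ones, beside -0.08 over all 15409 genes. Under normexp background correction the 31 constitutive genes had a median of -0.12, the same as all genes, with 8 of 31 above 0, so that their position relative to other genes depends on the background correction. Against ALA alone 6 genes were called lower, where 13.4% of all genes were. They were Psmg2 (log2 -0.61, limma adjusted p = 0.00907), Psmd5 (-0.53, adjusted p = 0.011), Psmd7 (-0.41, adjusted p = 0.0212), Psmd11 (-0.42, adjusted p = 0.0288), Psmd2 (-0.53, adjusted p = 0.039) and Psmg1 (-0.45, adjusted p = 0.0487). Other probes gave log2 -0.19 and -0.83 for Psmd7, -0.49 for Psmg2 and -0.50 for Psmd2. Calls in this comparison were lost without single arrays for Psmd7 (ALA plus X-ray replicate 2 or 3, limma adjusted p 0.0517 to 0.0619) and Psmd11 (ALA replicate 1 or 2 or ALA plus X-ray replicate 2, 3 or 4, adjusted p 0.0668 to 0.0764). The Psmd2 call was lost without control replicate 4, ALA replicate 1, 2 or 4, X-ray replicate 2 or ALA plus X-ray replicate 2, 3 or 4 (limma adjusted p 0.0504 to 0.116), and that of Psmg1 was kept only without X-ray replicate 1 or 3 or ALA plus X-ray replicate 1 (adjusted p 0.0528 to 0.137 without any other array). All 6 lower calls against ALA were lost with median scaling and with only the arrays compared, where Psmg2 had limma adjusted p of 0.112 and 0.0569 and Psmd5 of 0.133 and 0.063. Psmd5, an assembly chaperone of the ATPase ring, was at 2.55, 2.12, 2.54 and 2.39 with ALA and at 1.98, 1.72, 2.04 and 1.75 with ALA plus X-ray, with no overlap. The proteasome genes called lower were 9 of 46 against controls, a share to be read beside the 15.1% of all genes.

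The number of constitutive genes called moved with 1 array. ALA plus X-ray replicate 1 had a mean level of the 31 constitutive genes of 0.24, above the control range of 0.04 to 0.21, while the other 3 arrays of its group were at -0.34, -0.23 and -0.23. Without it 28 of the 46 genes were called against controls, 3 higher and 25 lower, including 20 of the 31 constitutive genes, all 6 ATPases and 9 of the 11 non-ATPase subunits. In that fit 14% of all genes were called higher and 24.7% lower. Against ALA it gave 22 calls, 4 higher and 18 lower, where 13.9% of all genes were called higher and 23.8% lower. Against X-ray alone it gave 6 lower calls, where 12.6% of all genes were called lower. With other arrays left out in turn the 12 calls against controls became 5 without control replicate 1 or 2, 4 without ALA plus X-ray replicate 2, 5 without replicate 3 and 6 without replicate 4, and 8 to 14 without any other array. Against ALA the 10 calls became 4 without ALA replicate 1, 6 without ALA replicate 2, 5 without ALA replicate 4 and 5 without ALA plus X-ray replicate 2, 3 or 4. For X-ray against control the 1 call became 0 without any control, ALA replicate 1 or 4, or X-ray replicate 1, 2 or 4, 2 without X-ray replicate 3 or ALA plus X-ray replicate 3, and 5 without ALA plus X-ray replicate 1. No share over all genes stands beside the counts with other arrays left out, so they are not read as particular to the proteasome genes.

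Markers of host cells also differed between these arrays. The mean level of 7 pan-leukocyte markers, each gene centred over the arrays, ran from -0.72 to 0.47 in controls and from -1.55 to -0.42 with ALA. It was 1.35, -0.72, -1.24 and -1.87 with X-ray and 0.40, 1.96, 1.80 and 2.50 with ALA plus X-ray. In the combined group 3 of the 7 pan-leukocyte markers, 3 of 8 measured T and NK cell markers and 4 of 11 macrophage markers were called higher than in controls, beside 9.77% of all genes. The T and NK list ran from -1.03 to 0.32 in controls and was 0.35, 1.69, 1.29 and 3.20 in the combined group and 2.47 in X-ray replicate 1. Of its 11 listed markers 7 were above background on no control array. Replicate 1 of the combined group had a pan-leukocyte level inside the control range and a T and NK level just above it. Its immune catalytic subunits (mean 1.27) were level with those of replicates 2 to 4 (1.40, 1.26 and 1.70). Its interferon-stimulated effectors were lower, at 1.07 against 2.03, 2.03 and 1.89. Its immune minus constitutive balance of 0.67 was the lowest of the group, with the highest constitutive level (0.24). The 8 melanoma and melanocyte markers were above background on all 16 arrays and ran from -0.10 to 0.11 in controls and from -0.23 to 0.19 in the combined group. Skeletal muscle markers were -2.55, -2.46, 4.44 and 2.61 in controls, beside constitutive levels of 0.21, 0.21, 0.04 and 0.14. In the combined group they were -2.44, 1.70, 5.74 and 2.35, beside constitutive levels of 0.24, -0.34, -0.23 and -0.23. With ALA they were -2.63, -0.97, -2.54 and -1.64, beside 0.09, 0.17, -0.04 and 0.00. In the X-ray group they were 0.83, -2.73, 1.00 and -0.70, beside constitutive levels of 0.05, -0.11, 0.00 and -0.19. Fibroblast markers ran from -1.28 to 0.94 in controls and were -0.33, 1.99, 2.00 and 3.26 in the combined group. The part of leukocytes, fibroblasts and muscle in the subunit values was not tested.

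Other genes of class I peptide processing were read beside the subunits. Of 11 MHC class I loading genes 5 were called higher in the combined group than in controls, where 9.77% of all genes were, with a list median of 0.81. H2-K1, a class I heavy chain, was at 2.15, 2.96, 3.29 and 3.75 in controls, at 5.02, 2.39, 2.03 and 1.60 with X-ray and at 4.07, 6.13, 6.09 and 6.40 with ALA plus X-ray (log2 2.63, limma adjusted p = 0.014). The light chain B2m rose by log2 1.02 (limma adjusted p = 0.0186), H2-D1 by 1.61 (adjusted p = 0.0295), the transporter subunit Tap2 by 1.35 (adjusted p = 0.0271) and the trimming peptidase Erap1 by 1.10 (adjusted p = 0.0419). Tap1, the gene next to Psmb9 whose window is shared with it, was at -1.94, -1.23, -1.68 and -0.98 in controls, at 1.56, -1.40, -1.78 and -1.49 with X-ray and at -0.45, 0.13, -1.98 and -0.32 with ALA plus X-ray. Unlike Psmb9, Tap1 in the combined group overlapped the controls through replicate 3, and it was not called (log2 0.80, limma adjusted p = 0.36). Among 5 cytosolic peptidases 1 was called, Thop1, which degrades peptides that the proteasome releases and fell by 1.09 (limma adjusted p = 0.0101), where 15.1% of all genes were called lower.

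Interferon genes were high on the same arrays as the immune subunits. Of 12 interferon-stimulated effectors 9 were called higher in the combined group than in controls, where the same 9.77% of all genes were (list median 2.87), and the smallest p-values were those of Ifit1 (log2 3.88, limma adjusted p = 0.00647), Oas1a (2.30, adjusted p = 0.01) and Ifit3 (3.05, adjusted p = 0.0124). Their mean level was 2.98 in X-ray replicate 1 and -0.28, -0.85 and -1.19 in the other X-ray arrays. Of 11 measured genes listed for interferon-gamma signalling 3 were called, Irf9 (log2 1.29, limma adjusted p = 0.0102), Stat2 (1.15, adjusted p = 0.0223) and Irf8 (2.08, adjusted p = 0.037). Irf9 and Stat2 are also parts of the complex that carries type I interferon signals. Irf1 was not called (log2 1.14, limma adjusted p = 0.0639). Ifng itself was above background on 0 control, 0 ALA, 1 X-ray and 4 ALA plus X-ray arrays, and Nlrc5, the class I transactivator, on none. Without X-ray replicate 1, the combined group exceeded X-ray alone in H2-K1 (log2 3.67, limma adjusted p = 0.00188), B2m (1.14, adjusted p = 0.00188) and Irf1 (1.06, adjusted p = 0.00285), and also in the leukocyte gene Ptprc (4.03, adjusted p = 0.00285). In that reduced fit 4.85% of all genes were called higher. The array was left out for its high values in such genes, so these p-values describe the reduced fit only. Its mean level of the MHC class I list was 1.26, above the 0.39 to 0.89 of the combined group.

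**Figure D4:**
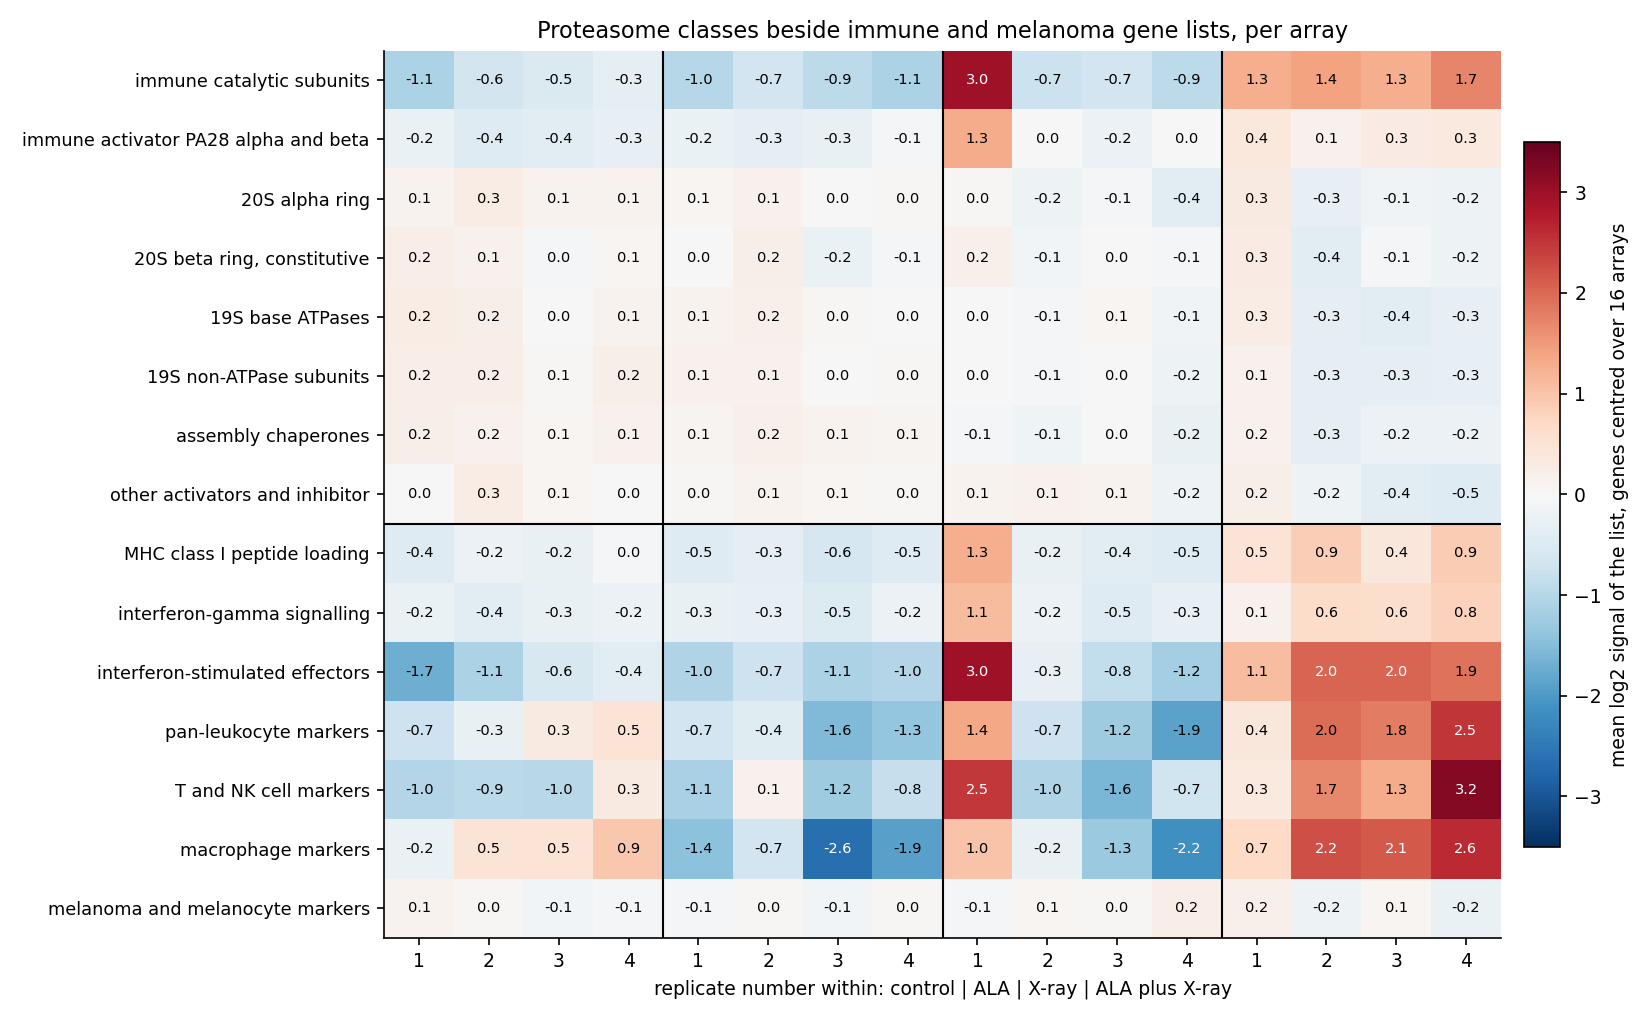
Mean log2 signal of each gene list, genes centred over the 16 arrays (colour and printed value), for 8 proteasome classes (above the line) and 7 other lists (below), in columns for the 16 arrays by group and replicate. Immune catalytic subunits, interferon-stimulated effectors and MHC class I genes are high in X-ray replicate 1 and in the 4 ALA plus X-ray arrays. In ALA plus X-ray replicate 1 the pan-leukocyte markers (0.40) lie within the control range, and the interferon-stimulated effectors (1.07) are the lowest of the group.

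Regulators and partners of the proteasome outside the Psm names are set beside 9.77% of all genes called higher and 15.1% called lower in the combined group against controls. Nfe2l2, a transcription factor of the oxidative stress response, rose by log2 0.48 in the combined group (limma adjusted p = 0.026), the 1 call among 5 regulators. Nfe2l1, which restores proteasome genes when proteasome activity is lost, was at log2 0.26 (limma adjusted p = 0.267). Among the 14 measured partners the shuttle factor Ubqln4 was called lower (log2 -0.94, limma adjusted p = 0.00717). The maturation factor Pomp (log2 -0.05, limma adjusted p = 0.806) and the ubiquitin receptor Adrm1 (0.01, adjusted p = 0.971) were not.

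The tissue-restricted subunits were not tested. Psmb11, the thymus-specific catalytic subunit, was above background on no array. Psma8, the testis-specific alpha subunit, was above background on 0 control, 0 ALA, 1 X-ray and 2 ALA plus X-ray arrays. Of the tested members 16 genes had more than 1 probe, 36 in all, and in the combined group against controls the probes of 3 of them differed in sign. Probes of near-identical copies cannot be told apart from their parent gene by these signals, and the values of Psme2 and others with such copies are uncertain to that extent.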

How the data were processed

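Per the file headers, the deposited scanner files hold spot intensity of 1-colour arrays on a linear scale, with the background subtracted and spatial trends removed by the scanner software (Agilent Feature Extraction, version 10.7.3.1, where the submitters' processing notes give 9.5.3.1) and nothing done between arrays, and other values, which are flags of 0 or 1 for background, saturation and outliers. The authors' deposited value table is also intensity, with near-identical distributions in each column, as quantile scaling gives. Every column has a median of 31.9, each column's log2 values followed its own array's log2 signal across spots (r from 0.992 to 1), no label states its scaling, and it served as an alternative only. All 43379 non-control spots were used except outlier marks. Spots of a probe were averaged as log2 of the processed signal minus the array's 75th percentile, and the probe of highest mean level stood for its gene. Probe names came through RefSeq accessions for 26876 probes, through current or older symbols for 2894 and 351, and from the files for 11053.

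Genes well above background on at least 4 of 16 arrays (15409) were fitted together in limma 3.58.1 (R 4.3.3) with 1 mean per group, which left 12 residual degrees of freedom, and p-values were adjusted by Benjamini-Hochberg. No spot of the proteasome genes was saturated. Only 4 arrays per group limit the precision. The proteasome genes and the other lists were chosen with earlier results of these data known. Named genes were the 5 immune subunits, the catalytic counterparts, Psme3, called members, the highest and lowest of each class, and fixed genes of class I, interferon, regulator and partner lists with up to 3 more of smallest p. Psmb3, Psmc6, Psmd9 and Psmd12 are named for their motif matches. Some genes of these lists are not reported here. Scripts were tested on simulated data.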

Additional observations from a re-analysis of the deposited data

Results flagged for a closer look

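Over the 4 groups together, 11 of 184 gene and group combinations had an end array that stood apart. The gap to its neighbour took a share of the group's range above Dixon's 95% limit. Chance gives such a gap in about 1 of 20 combinations, and the number flagged is near that. Of the 11, 6 are X-ray replicate 1. In that array all 5 immune subunits stood above their group: Psmb8 at 5.37 (next array 1.29, gap 0.934 of the range), Psmb9 at 4.47 (next -0.28, 0.913), Psmb10 at 6.31 (next 4.41, 0.894), Psme2 at 6.22 (next 4.88, 0.87) and Psme1 at 6.18 (next 4.92, 0.843). The alpha ring gene Psma2 was also highest there, at 6.34 (next 6.02, 0.895). ALA plus X-ray replicate 1 was highest of its group for the chaperone Psmg2 at 2.31 (next 1.77, 0.951), Psma4 at 3.58 (next 2.79, 0.891), the ATPase Psmc1 at 5.11 (next 4.63, 0.841) and Psmd11 at 5.76 (next 5.29, 0.834). The chaperone Psmg3 was highest in ALA replicate 2, at 3.41 (next 3.11, 0.856). The reason for these gaps was not tested.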

How the results depend on the processing

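The immune minus constitutive balance kept its direction in the combined group under the alternatives run, at 1.57 to 1.85 against controls and 1.67 to 1.92 against ALA, or 1.67 to 1.91 and 1.70 to 1.94 with arrays left out in turn. Between the irradiated groups it was 0.58 to 1.50 with arrays left out, and for X-ray against control 0.27 to 1.18. The number of proteasome genes called moved more, and the cause was not tested. The number called over all genes moved too: with median scaling it fell in each comparison for which it is given above. Shares over all genes are not set beside the counts that follow, so these are not read as particular to the proteasome genes. Against controls (12 calls) it was 4 with median scaling, 5 without the filter, 5 with only the arrays compared, 29 with array weights, 17 with the replicate block and 4 to 28 with arrays left out in turn. Against ALA (10 calls) it was 3, 5, 4, 23 and 12 in the same order, and 4 to 22 with arrays left out. For X-ray against control (1 call) it was 0 with normexp, median scaling, no filter and the replicate block, 2 with quantile scaling, the percentile over probes above background, the filter on all 16 arrays and trend with robust moderation, 3 with the authors' table and with only the arrays compared, 12 with array weights, and 0 to 5 with arrays left out. For ALA plus X-ray against X-ray (0 calls) array weights gave 3 and arrays left out 0 to 6, and for the interaction (0 calls) array weights gave 2 and arrays left out 0 to 3. Same-numbered arrays shared a slide, but their deviations correlated at -0.46 to 0.54 (median 0.06, 9 of 24 over 0.1), so the replicate block is not taken as a pairing.

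Some differences turned sign, many of them near 0. Those of Psmb8 and Psmb9 for X-ray against control were not near 0: they rested on X-ray replicate 1 and turned without it. With other settings, Psmb9 was at -0.03 for X-ray against control (array weights) and Psme1 at -0.08 for ALA against control (median scaling). Against X-ray, Psmb5 and Psmb6 were both at 0.00 under normexp. Against ALA, Psmb5 was at 0.09 (normexp), 0.03 (quantile and the authors' table) and 0.01 (median), and Psmb6 at 0.01 (normexp). In the interaction, Psmb5 was at -0.09 (array weights), Psmb6 at 0.13 (normexp), 0.05 (quantile and the authors' table) and 0.07 (median), and Psmb7 at -0.05 (normexp), -0.03 (quantile, percentile and the authors' table) and -0.12 (array weights). With arrays left out in turn the values that turned sign ran over these ranges: for X-ray against control Psmb8 -0.01 to 1.45 and Psmb9 -0.54 to 1.19, for ALA against control Psmb6 -0.19 to 0.02, against X-ray Psme1 -0.39 to 0.10, Psmb5 -0.21 to 0.02 and Psmb6 -0.19 to 0.03, against control Psme3 -0.21 to 0.06, against ALA Psmb5 -0.16 to 0.06 and Psmb7 -0.27 to 0.02, and in the interaction Psme1 -0.43 to 0.06, Psme2 -0.08 to 0.43, Psmb5 -0.03 to 0.20, Psmb6 -0.12 to 0.11 and Psmb7 -0.19 to 0.10. Of the other values of named genes 1717 kept direction and call, 161 lost a call and 21 gained one. Signals near background limit Psma8, Psmb11 and some second probes.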
